A study of Rattus norvegicus with 13 samples.

Results

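miR-26a and miR-26b, listed as rno-miR-26a and rno-miR-26b on a rat microRNA (miRNA) array, are 2 of the 350 miRNAs it measures and were chosen by name. They were followed over 13 arrays of primary cultures, prepared from cortical tissue of postnatal day 1 rats. The cultures were neurons (n = 3), astrocytes (n = 4), oligodendrocytes (n = 3) and microglia (n = 3), all labelled as 10 days in vitro, although the growth protocol gives 7 days for microglia. Neurons were kept in Neurobasal medium with cytosine arabinoside (Ara-C), a drug that kills dividing cells. Astrocytes were grown in MEM with horse serum and shaken overnight to detach other cells. Oligodendrocytes were shaken loose from mixed cultures and plated on poly-lysine, and microglia were the cells floating over confluent mixed cultures, so each group is an enriched culture and not a sorted cell type. Each array received 100 ng of total RNA labelled with Cy3. The question was how the 2 members are distributed over the 4 cell types.

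miRNAs are short RNAs that guide Argonaute proteins to messenger RNAs and lower their output, and the seed, bases 2 to 8 from the 5′ end, does most of the target recognition. The miR-26 family is conserved across vertebrates and is broadly expressed. Its hairpins are found in introns of the CTDSP genes, which encode small phosphatases that work with the repressor REST to keep neuronal genes silent in other cells. In zebrafish, miR-26b represses ctdsp2, the gene that hosts it, during neurogenesis. In human cells miR-26a targets EZH2, the methyltransferase of Polycomb complex 2.

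The mature sequences are shown because the members share a seed and differ little elsewhere, so an array must tell near-identical RNAs apart. RefSeq, in build GRCr8, gives them as follows, with the seed in capitals.
miR-26a: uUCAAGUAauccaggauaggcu
miR-26b: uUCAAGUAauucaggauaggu
Of 724 rat mature miRNAs in the RefSeq table, these 2 carry this seed. miR-26a has 22 bases and miR-26b has 21, and over the 21 positions they share they are the same at 19. Counted from the 5′ end, with the base of miR-26a first, the differences were C11U and C21U. The same molecules are printed again with the bases that differ, and the additional last base of miR-26a, in capitals.
miR-26a: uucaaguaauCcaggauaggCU
miR-26b: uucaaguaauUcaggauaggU

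The precursors come from separate loci, and their hairpins are shown with the measured strand in capitals because the members' probes are for that strand.
Mir26a hairpin: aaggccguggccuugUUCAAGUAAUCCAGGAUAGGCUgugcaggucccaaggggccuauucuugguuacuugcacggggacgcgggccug
Mir26b hairpin: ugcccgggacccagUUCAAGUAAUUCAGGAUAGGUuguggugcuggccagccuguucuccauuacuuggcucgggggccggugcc
Mir26a lies at chr8:127633048-127633137 (GRCr8, plus strand), inside the span of Ctdspl at chr8:127520478-127644999 on the same strand. Mir26b lies at chr9:83425709-83425793 (plus strand), inside Ctdsp1 at chr9:83422755-83428411, also on the same strand. The host messenger RNAs were not measured on this array.

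Each member had 2 probes with 10 spots each. By the array's own annotation, in build rn4, the miR-26a probes span 15 bases (chr8:123981642-123981656) and 16 bases (chr8:123981641-123981656). The miR-26b probes span 20 bases (chr9:73734077-73734096) and 21 bases (chr9:73734076-73734096). The probes of a member share their upper coordinate. No spot of either member was saturated on any array, and 517 of 520 were well above background. Both members were detected on all 13 arrays.

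The labels were read against cell type miRNAs before the members. Levels here and below are signal relative to the 75th percentile of the array's own signal over the 119 miRNAs detected on all arrays, given in log2 unless said otherwise. The 5 neuron markers (miR-124, miR-128, miR-129, miR-137, miR-153) summed on the linear scale to between 19.6 and 21.5 times that percentile in neurons, and to no more than 3.91 on any other array. The 4 oligodendrocyte markers (miR-219-5p, miR-219-2-3p, miR-338, miR-338*) summed to between 7.14 and 12.4 in oligodendrocytes, against at most 2.67 elsewhere. The 4 myeloid markers (miR-142-3p, miR-142-5p, miR-146a, miR-223) summed to between 26.6 and 30.4 in microglia, to between 1.84 and 1.91 in astrocytes, to between 0.602 and 1.65 in oligodendrocytes and to at most 0.0289 in neurons. The 5 astrocyte-associated miRNAs (miR-21, miR-23b, miR-27b, miR-29a, miR-29b) summed to between 31.2 and 35.2 in astrocytes but to between 27.0 and 51.5 in microglia, so the sum did not set astrocytes apart. In log2, miR-21 was 4.27 in astrocytes and 4.92 in microglia, and miR-27b was highest in oligodendrocytes. miR-29a (2.18), miR-29b (2.46) and miR-23b (1.04) were highest in astrocytes, though miR-23b was 0.97 in oligodendrocytes. Of the 4 endothelial and mural markers, miR-145 was detected on no array, miR-126* on 2 microglia arrays, and the other 2 summed to at most 0.192. Oligodendrocyte array 2 stood apart from its group, with neuron markers at 3.91 against 0.975 and 1.38 on arrays 1 and 3, myeloid markers at 1.65 against 0.602 and 0.775, and oligodendrocyte markers at 7.14 against 12.4 and 11.5. Its spots were also uneven: the coefficient of variation over spots of a member's probe reached 48.8% there and 13.4% on microglia array 2, against at most 7.24% on the other 11 arrays. Slide 1 held the neuron and oligodendrocyte arrays, and slide 2 held the other 7. Summed miRNA intensity ran from 276541 to 514312 units on the neuron arrays and from 107778 to 300388 on the others.

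On this scale miR-26a was highest in neurons, lower in astrocytes and lowest in oligodendrocytes and microglia. Its level was 2.42, 2.32 and 2.36 on the neuron arrays, 1.46, 1.55, 1.59 and 1.60 on the astrocyte arrays, 0.84, 1.10 and 0.90 on the oligodendrocyte arrays and 0.88, 1.11 and 1.10 on the microglia arrays. All neuron arrays were above all astrocyte arrays, all astrocyte arrays were above those of oligodendrocytes and microglia, and the last 2 groups overlapped. The means were 2.37 ± 0.05 in neurons (SD over arrays, n = 3), 1.55 ± 0.07 in astrocytes (n = 4), 0.95 ± 0.14 in oligodendrocytes (n = 3) and 1.03 ± 0.13 in microglia (n = 3). In unscaled intensity the probes of miR-26a averaged 5471, 9815 and 5632 units on the neuron arrays and 1413, 1537 and 1178 on the microglia arrays. In RNA from a whole culture, fewer cells carrying a miRNA and less of it per cell cannot be told apart.

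miR-26b, with the same seed, took a different order on this scale: it was highest in microglia, then astrocytes, then neurons, and lowest in oligodendrocytes. Its level was -0.47, -0.31 and -0.31 on the neuron arrays, -0.03, -0.01, 0.03 and 0.05 on the astrocyte arrays, -0.62, -0.81 and -0.70 on the oligodendrocyte arrays and 0.28, 0.22 and 0.41 on the microglia arrays. No 2 types overlapped on this scale. The order of neurons and oligodendrocytes changed with the scaling: as a mean share of summed signal, miR-26b was 0.389% in neurons and 0.536% in oligodendrocytes. The means were -0.36 ± 0.09 in neurons (SD over arrays, n = 3), 0.01 ± 0.03 in astrocytes (n = 4), -0.71 ± 0.10 in oligodendrocytes (n = 3) and 0.31 ± 0.10 in microglia (n = 3).

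**Figure D1:**
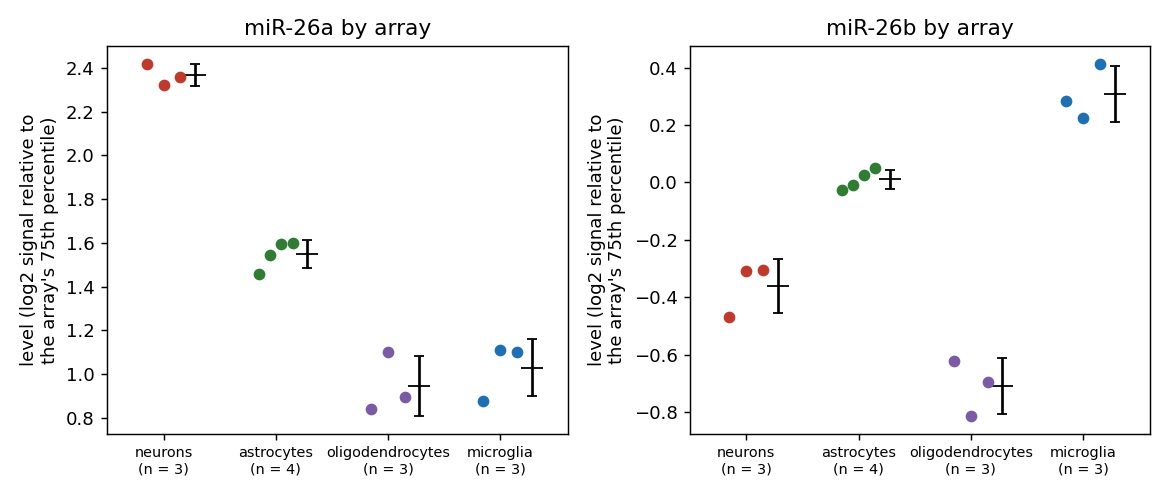
Level of miR-26a (left) and miR-26b (right) on each array, as log2 signal relative to the array's 75th percentile; each point is an array, and the black bar beside each group is the mean with its SD. miR-26a has its highest points in neurons, near 2.4, and miR-26b has its highest in microglia, between 0.22 and 0.41.

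Both members differed among the 4 types in a limma F test (adjusted p = 7.53e-08 for miR-26a and 6.33e-07 for miR-26b), as did 95.5% of the 268 tested miRNAs. A difference among these cultures is therefore common to nearly all miRNAs, and the members were among the less variable of them. The type means of miR-26a spanned 1.42 log2 units (2.68-fold) and those of miR-26b spanned 1.02 (2.02-fold). The median span was 2.61 over the tested miRNAs, where undetected signal is included and lower values are set to -8.04. It was 2.10 over the 119 detected on all arrays. Of those 119, 42 had a smaller span than miR-26a and 20 a smaller span than miR-26b.

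Neurons against astrocytes moved the members in opposite directions. miR-26a was 1.76-fold higher in neurons (log2 0.82 ± 0.08 SE, limma adjusted p = 3.06e-06). miR-26b was 1.29-fold lower in neurons (log2 -0.37 ± 0.07 SE, adjusted p = 0.000569). This comparison called 81.3% of tested miRNAs, 56% higher and 25.4% lower in neurons, and its median difference over all of them was 0.54. With the 75th percentile taken over all miRNAs, the miR-26a difference was -0.14 (adjusted p = 0.223) and the miR-26b difference -1.33 (adjusted p = 1.05e-05). Without any scaling miR-26b was at -0.0702 (adjusted p = 0.858).

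Neurons against microglia also moved the members in opposite directions. miR-26a was 2.52-fold higher in neurons (log2 1.34 ± 0.09 SE, limma adjusted p = 5.09e-08), and miR-26b was 1.59-fold lower (log2 -0.67 ± 0.08 SE, adjusted p = 6.97e-06). Here 83.2% of tested miRNAs were called, 52.2% higher and 31% lower in neurons, with a median difference of 0.58. The miR-26a difference fell to 0.13 (adjusted p = 0.271) with the percentile over all miRNAs, and the miR-26b difference was 0.29 (adjusted p = 0.477) without any scaling.

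Neurons and oligodendrocytes shared a slide. miR-26a was 2.68-fold higher in neurons (log2 1.42 ± 0.09 SE, limma adjusted p = 4.96e-08). The size of this difference depended on the scaling, though it stayed called. It was 0.41 with the percentile over all miRNAs, 0.58 after quantile normalization and 0.56 in the deposited series table. As a share of summed signal it was 0.61, and without scaling 1.82. miR-26b was 1.27-fold higher (log2 0.35 ± 0.08 SE, adjusted p = 0.0014), where 78% of tested miRNAs were called, 58.2% higher and 19.8% lower in neurons, and the median difference was 0.79. The direction for miR-26b changed with the scaling: it was -0.22 after quantile normalization (adjusted p = 0.0892), -0.18 in the deposited series table (adjusted p = 0.195), -0.66 with the percentile over all miRNAs (adjusted p = 0.00425) and -0.46 as a share of summed signal (adjusted p = 0.000552). The last 2 of these passed the threshold in the opposite direction.

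Astrocytes exceeded oligodendrocytes in both members. The difference was 1.52-fold for miR-26a (log2 0.60 ± 0.08 SE, limma adjusted p = 7.83e-05) and 1.65-fold for miR-26b (log2 0.72 ± 0.07 SE, adjusted p = 7.38e-06), with 56.3% of tested miRNAs called, 25.7% higher and 30.6% lower in astrocytes. As a share of summed signal miR-26a differed by 0.24 (adjusted p = 0.0674), and without scaling the differences were 0.71 (adjusted p = 0.0944) and 0.82 (adjusted p = 0.0689).

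Astrocytes and microglia, on the other slide, differed in opposite directions. miR-26a was 1.43-fold higher in astrocytes (log2 0.52 ± 0.08 SE, limma adjusted p = 0.000165), and miR-26b was 1.23-fold lower (log2 -0.30 ± 0.07 SE, adjusted p = 0.00315), with 65.7% of tested miRNAs called, 29.9% higher and 35.8% lower in astrocytes. The miR-26b difference was -0.23 (adjusted p = 0.0811) in the deposited series table and 0.36 (adjusted p = 0.457) without scaling.

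Oligodendrocytes against microglia moved miR-26b alone past the threshold. miR-26a did not pass the test (log2 -0.08, 95% interval -0.28 to 0.11, limma adjusted p = 0.45). miR-26b was 2.02-fold lower in oligodendrocytes (log2 -1.02 ± 0.08 SE, adjusted p = 3.25e-07), in a comparison that called 61.6% of tested miRNAs, 32.1% higher and 29.5% lower in oligodendrocytes. As a share of summed signal miR-26a was 0.33 higher in oligodendrocytes (adjusted p = 0.0201), and with the percentile over all miRNAs its difference was -0.28 (adjusted p = 0.045). It was above 0 without passing the threshold after quantile normalization, in the deposited series table and without scaling. The miR-26b difference was -0.46 (adjusted p = 0.316) without scaling. In this pair and the 3 others that cross slides, slide and cell type cannot be told apart.

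**Figure D2:**
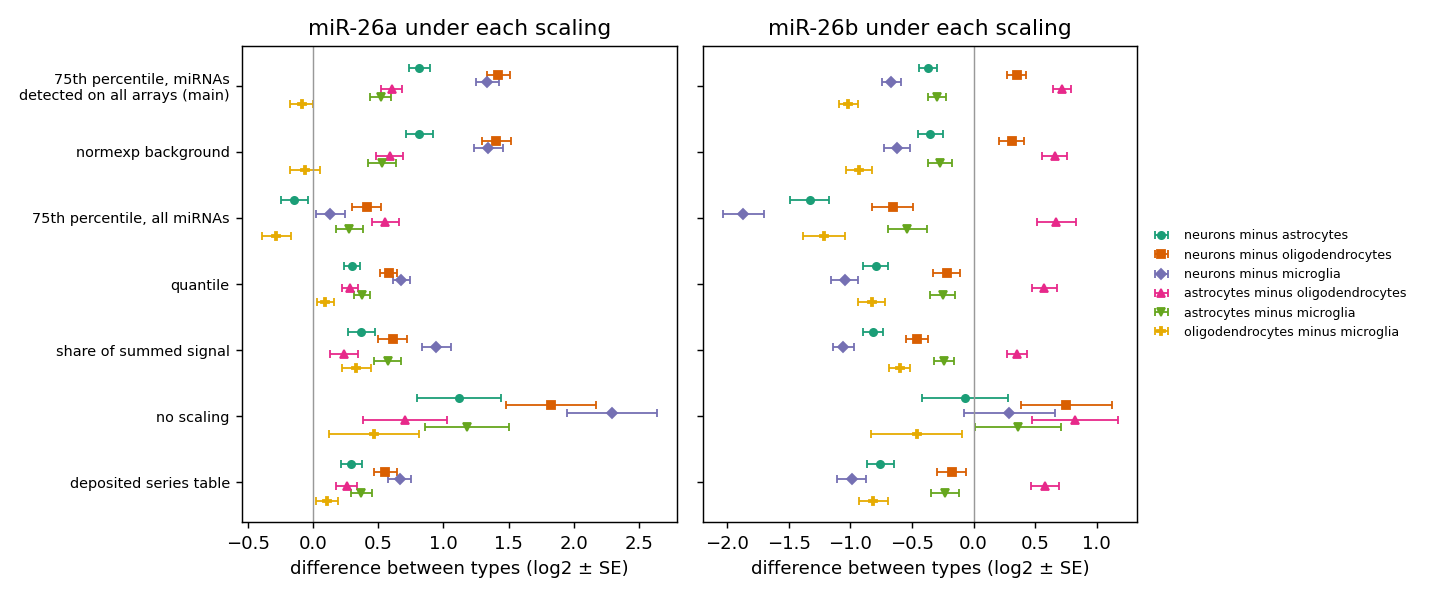
Differences between cell types (log2, with SE from limma) for miR-26a (left) and miR-26b (right) under 7 ways of scaling the arrays, each row a scaling and each symbol a pair of types. For miR-26b the neuron minus oligodendrocyte symbol lies at 0.35 in the top row and at -0.66 with the percentile over all miRNAs.

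The ratio of the members on an array does not depend on any factor that scales the whole array, and it separated the cell types in a graded way. The log2 ratio of miR-26a signal to miR-26b signal was 2.89, 2.63 and 2.66 on the neuron arrays, 1.49, 1.55, 1.57 and 1.55 on the astrocyte arrays, 1.46, 1.91 and 1.59 on the oligodendrocyte arrays and 0.60, 0.89 and 0.69 on the microglia arrays. The neuron arrays lay above all others, the microglia arrays lay below all others, and astrocytes and oligodendrocytes overlapped. The probes of different miRNAs bind with different strength, so only the change of this ratio between types can be read, not how many molecules of each member there are.

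The ratio averaged 2.73 ± 0.14 in neurons (SD over arrays, n = 3), 1.54 ± 0.04 in astrocytes (n = 4), 1.66 ± 0.23 in oligodendrocytes (n = 3) and 0.72 ± 0.15 in microglia (n = 3). It differed among the 4 types (exact permutation test of the F ratio over 1201200 assignments of arrays, p = 6.99e-05). Neurons exceeded the other arrays by 1.40 (exact two-sided permutation test, n = 3 against 10, p = 0.0035, the smallest that 286 assignments allow, adjusted p = 0.014 over the 4 types). Microglia minus the other arrays came to -1.21 (exact two-sided permutation p = 0.00699, adjusted p = 0.014). Without microglia array 1 this difference was -1.14 and without array 3 it was -1.19, each with an adjusted p of 0.0909 from exact permutation of 2 arrays against 10. Astrocytes differed from the other arrays by -0.16 (exact permutation adjusted p = 0.931) and oligodendrocytes by 0.01 (exact permutation adjusted p = 0.986). In these 4 tests the other arrays mix the remaining types, which had ratios of their own. The p-values therefore do not speak to any single pair of types.

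Between single types the ratio was 4.01-fold higher in neurons than in microglia, 2.28-fold higher than in astrocytes and 2.1-fold higher than in oligodendrocytes. It was 1.76-fold higher in astrocytes than in microglia and 1.91-fold higher in oligodendrocytes than in microglia. The pairs that share a slide, neurons with oligodendrocytes and astrocytes with microglia, showed differences of 1.07 and 0.82 in log2 without overlap of arrays. With 3 arrays against 3 an exact permutation test cannot go below p = 0.1, and with 3 against 4 not below 0.0286, which is 0.0857 after adjustment over the 6 pairs, so no single pair could pass. Without oligodendrocyte array 2 and microglia array 2, a choice made after seeing the spots, the ratio in neurons still exceeded the other arrays (exact permutation adjusted p = 0.0242), and in microglia the difference was -1.29, with an adjusted p of 0.109 from exact permutation of 2 arrays against 9. The 2 arrays left out held the highest ratio of their own groups.

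**Figure D3:**
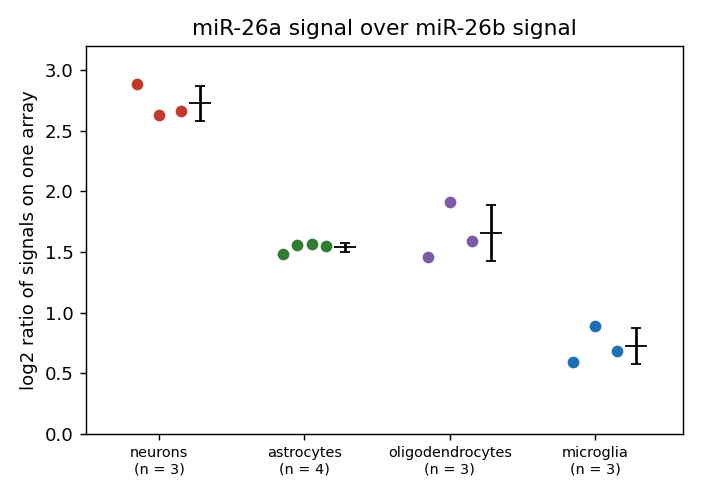
Log2 ratio of miR-26a signal to miR-26b signal on each of the 13 arrays by cell type, with the mean and SD of each group as a black bar. Neuron arrays lie between 2.63 and 2.89 and microglia arrays between 0.60 and 0.89, with astrocytes and oligodendrocytes between them.

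Both probes of each member gave the same direction. For miR-26a the neuron minus microglia difference was 1.33 on the probe spanning 15 bases and 1.34 on the probe spanning 16. For miR-26b it was -0.73 on the probe spanning 20 bases and -0.62 on the probe spanning 21. This held in all 6 pairs of types. The widest gap between probes was for miR-26b in neurons minus oligodendrocytes, at 0.28 and 0.41. Each member's longer probe was the brighter in every type. How far each probe also binds the other member was not measured.

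**Figure D4:**
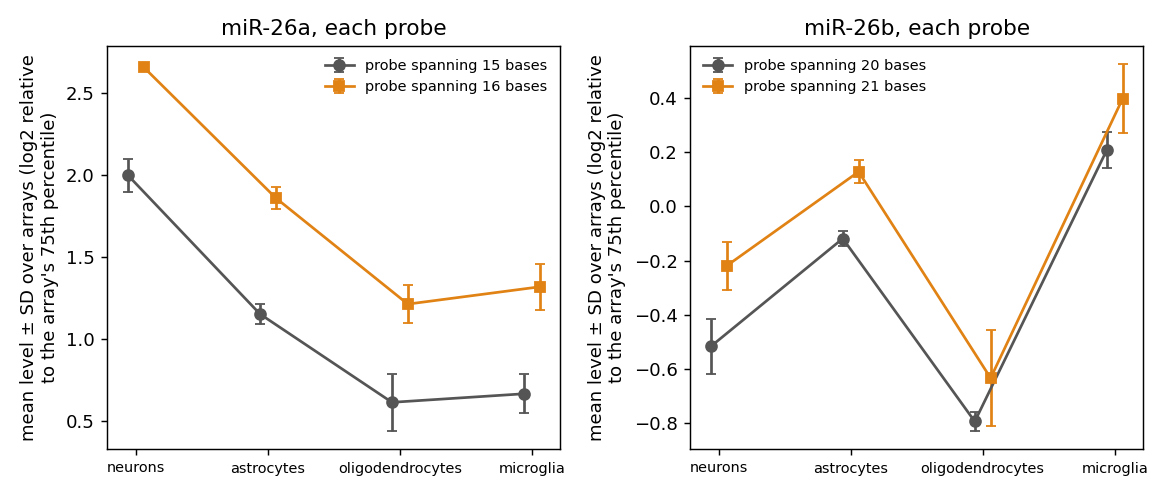
Mean level with SD over arrays for each probe of miR-26a (left) and miR-26b (right) in the 4 cell types. The lines of a member run nearly parallel, with the longer probe above the shorter one.

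The markers of other cell types were set beside these values. On oligodendrocyte array 2, where neuron markers were highest within the group, miR-26a was 1.10 against 0.84 and 0.90 on arrays 1 and 3, and miR-26b was -0.81 against -0.62 and -0.70. The miR-26b spots on that array were uneven, with coefficients of variation of 16.9% and 48.8% on its probes. Those of miR-26a there were 5.83% and 6.90%. In astrocytes the single myeloid markers stood at between 5.96% and 7.72% of their microglia level, and in oligodendrocytes at between 2.48% and 4.97%. Their part in the levels of the members was not tested. Leaving out any single array kept every difference of miR-26a and of miR-26b on its side of the threshold.

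The miRNAs most like each member were named by Pearson correlation of levels over the 13 arrays, which fall into 4 groups and share scaling, so the values describe likeness only. miR-101a was closest to miR-26a (r = 0.96), with neurons at -0.59 ± 0.11, astrocytes at -1.46 ± 0.07, oligodendrocytes at -1.75 ± 0.04 and microglia at -1.61 ± 0.09 (SD). let-7a (r = 0.94), miR-185 (0.93), let-7i (0.93) and miR-22* (0.93) followed. Most opposed to miR-26a were miR-19b (r = -0.99), miR-19a (-0.97) and miR-20a (-0.97), members of the growth-promoting miR-17-92 cluster. For miR-19b neurons stood at -0.40 ± 0.05, astrocytes at 0.92 ± 0.04, oligodendrocytes at 1.80 ± 0.04 and microglia at 1.60 ± 0.33.

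A different set resembled miR-26b. Closest were miR-146b (r = 0.98), an inflammation-linked miRNA, and miR-23a (0.96), followed by miR-28 (0.94), miR-34a (0.93) and miR-24-2* (0.93). For miR-146b neurons stood at -4.22 ± 0.14, astrocytes at -3.41 ± 0.03, oligodendrocytes at -5.13 ± 0.08 and microglia at -2.33 ± 0.08. Most opposed were miR-151 (r = -0.94), miR-181b (-0.92) and miR-138 (-0.90). The members themselves had r = -0.10 with each other over the same 13 arrays.

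**Figure D5:**
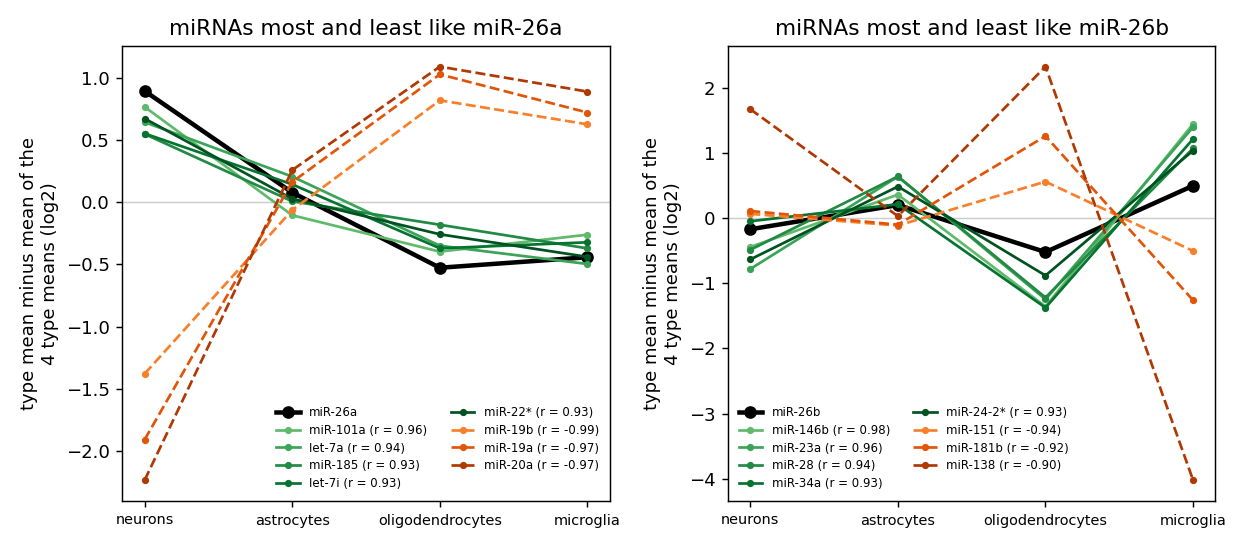
Type means of miR-26a (left) and miR-26b (right), in black, with the 5 miRNAs most like each (green) and the 3 least like it (orange, dashed), each centred on the mean of its 4 type means (log2). The green lines of miR-26a fall after neurons, while those of miR-26b dip in oligodendrocytes and peak in microglia.

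Members of the miR-26 family are sometimes used as reference miRNAs in quantitative PCR, so other miRNAs used that way were set beside them. This list and those below were chosen with earlier results of these data known, so their counts describe the lists only. All 8 of the reference list differed among the 4 types by the F test, as did 95.5% of all tested. Their spans of type means ran from 0.91 for miR-103 to 1.90 for miR-93, with miR-25 second at 1.43. The 1.42 of miR-26a was smaller than 2 of the 8 spans, and the 1.02 of miR-26b was smaller than 7 of them. Of these 8, miR-191 and miR-423 were not detected on every array. In neurons against microglia, 1 of the 8 was higher and 6 were lower, against 52.2% higher and 31% lower over all tested. miR-191 was detected on 2 microglia arrays, 1 astrocyte array and no others, and stood at -8.04 in neurons. It passed the detection filter only with its microglia arrays, so its being lower in neurons is no separate result.

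The REST-linked list, of miRNAs reported as targets of REST or acting on its pathway, touches the pathway of the host genes of miR-26. Of its 11 members, 4 (miR-124, miR-153, miR-29a and miR-29b) are also among the cell type markers above. All 11 differed among the types, beside the 95.5% of all tested. In neurons against microglia, where miR-26a was higher and miR-26b lower, 7 of the 11 were higher and none was lower, against 52.2% and 31% over all tested. In neurons against astrocytes 7 were higher and 3 lower, against 56% and 25.4% over all tested. In astrocytes against microglia 8 were higher and 1 lower, against 29.9% and 35.8%. miR-203, at -6.45 in astrocytes and -7.73 in neurons, was detected on 3 astrocyte arrays, 1 neuron array and no others. It passed the detection filter only through astrocytes, so its being higher there is no separate result. On the microglia arrays miR-124, miR-135b, miR-153, miR-203 and miR-346 were never detected, and miR-132 was detected on 1. Both counts against microglia therefore rest in part on signal not above background there. The members with the highest spans were miR-124 and miR-9, both promoting neuronal fate. miR-9 spanned 9.63 and was detected on all 13 arrays, while miR-124 was detected on no microglia array, so its span depends on signal not above background there.

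Of the 8 miRNAs listed as targeting Ezh2 beside miR-26a, all were higher in neurons than in microglia, against 52.2% of all tested, and 4 of them (miR-124, miR-137, miR-138 and miR-214) were detected on no microglia array. This list too was chosen with earlier results of these data known, so its counts are no test of Ezh2 targeting. In neurons against astrocytes 7 of the 8 were higher and none lower, against 56% and 25.4% over all tested. In neurons against oligodendrocytes 7 were higher and 1 lower, against 58.2% and 19.8%. Each of these counts includes miR-214, which was detected on the neuron arrays alone. It passed the detection filter only through them, so its being higher there is no separate result. The highest spans in this list belonged to miR-124 and miR-137, both neuron markers above, whose sizes depend on undetected signal in microglia. miR-101a and let-7a, the closest in pattern to miR-26a, are also on the list.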

How the data were processed

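Per the file headers, the authors processed 13 one-colour Agilent arrays with Feature Extraction 9.5.3.1, giving intensity per spot after spatial detrending, and a total intensity and detection call per miRNA, with no step that scales arrays to each other. Log2 values in the deposited series table are quantile normalized, judging by the values. The method is not given in the sources used here, and it served as an alternative.

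Spots called outliers were dropped (22 of the members' 520), the rest averaged per probe and then per miRNA, and divided by that array's 75th percentile, computed from the 119 miRNAs with detection on every array. Values were floored at -8.04 on the log2 scale. The 268 miRNAs with detection on 3 or more arrays were fitted together with limma 3.58.1 in R 4.3.3 (lmFit, eBayes), with Benjamini-Hochberg adjustment over all 268 and a threshold of 0.05. The ratio of the members was tested by exact permutation in Python 3.11.15. The steps were tested on simulated data. The study's text calls the arrays biological replicates, and their number limits the precision. Named beside the members were the 5 miRNAs with the highest and the 3 with the lowest correlation with each, and the 2 widest of each list. The members and lists were chosen with earlier results of these data known. Alternatives covered background correction, scaling, probe summary, filters, floor, variance model, a block for the replicate number, and each array left out in turn. The filters, floor and variance model left each member's difference as it was, and could change only whether it was called. Same-numbered arrays of different types did not deviate together (r -0.34 to 0.20, over 0.1 in 3 of 18 pairs), so the numbers were not taken to pair them.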

Additional observations from a re-analysis of the deposited data

How the results depend on the processing

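Of 504 recomputed values over 19 results, 469 kept direction and side of the threshold, including 237 of 247 with an array left out. Without scaling 5 kept both, 6 missed the threshold and 3 changed sign. With the 75th percentile over all miRNAs, miR-26a was -0.14 in neurons minus astrocytes, 0.13 in neurons minus microglia and -0.28 in oligodendrocytes minus microglia, and miR-26b was -0.66 in neurons minus oligodendrocytes. As a share of summed signal, miR-26a was 0.24 in astrocytes minus oligodendrocytes and 0.33 in oligodendrocytes minus microglia, and miR-26b was -0.46 in neurons minus oligodendrocytes. That last difference was -0.22 after quantile normalization and -0.18 in the deposited series table, where miR-26b in astrocytes minus microglia was -0.23. Without scaling, the F test of miR-26b gave F = 2.19 (adjusted p = 0.127), and its differences were -0.0702 (adjusted p = 0.858) for neurons minus astrocytes, 0.75 for neurons minus oligodendrocytes, 0.29 for neurons minus microglia, 0.82 for astrocytes minus oligodendrocytes, 0.36 for astrocytes minus microglia and -0.46 (adjusted p = 0.316) for oligodendrocytes minus microglia, with 0.71 for miR-26a in astrocytes minus oligodendrocytes. The ratio in microglia minus the other arrays ran from -1.29 to -1.10 when single arrays were left out. It missed the threshold without microglia array 1 (-1.14) or array 3 (-1.19), but not without array 2 (-1.29, exact permutation adjusted p = 0.0303). It was -1.29 without oligodendrocyte array 2 and microglia array 2. Without passing the threshold, miR-26a in oligodendrocytes minus microglia changed sign after quantile normalization (0.0948), in the deposited series table (0.11) and without scaling (0.47). The oligodendrocyte ratio minus the other arrays, 0.01, was -0.0412 with normexp, -0.0413 with the median over spots and -0.21 without those 2 arrays, and ran from -0.12 to 0.14 when single arrays were left out. The median of all tested miRNAs in neurons minus astrocytes was 0.54, with -0.28 after quantile normalization and 0.85 without scaling. The share of calls that were higher was 68.8% in neurons minus astrocytes, 74.6% in neurons minus oligodendrocytes and 62.8% in neurons minus microglia, and 42.7%, 49.8% and 48.7% after quantile normalization. Without scaling it was 78.2% in neurons minus microglia, 67.6% in astrocytes minus microglia (main 45.5%) and 65.1% in oligodendrocytes minus microglia (main 52.1%), and as a share of signal 30.1% in astrocytes minus oligodendrocytes (main 45.7%). With normexp background correction it was 40.8% in neurons minus microglia, 25.3% in astrocytes minus microglia and 32.2% in oligodendrocytes minus microglia. That correction called 132 in neurons minus astrocytes in place of 218, 133 in neurons minus oligodendrocytes in place of 209 and 81 in astrocytes minus oligodendrocytes in place of 151, and no scaling called 100 in the last. Testing only the 119 miRNAs detected on all arrays left between 89 and 101 calls a pair, since fewer were tested. With the replicate block no call of either member changed. The causes were not tested.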

Other observations

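The opposite strand of the miR-26b hairpin, listed on the array as miR-26b*, has 4 probes and was detected on none of the 13 arrays, while miR-26b was detected on all of them. Its total signal ran from -3.77 to 5.86 intensity units, against 519 to 2116 for miR-26b.

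The divergence of miR-26a and miR-26b was set beside other miRNAs whose names differ by a letter alone, a comparison chosen after the values were seen and given without a test. Among miRNAs detected on all 13 arrays there were 45 such pairs in 11 families, many of them sharing members. The range of the log2 ratio over the 4 type means was 2.00 for miR-26a and miR-26b, with 17 pairs above it, 27 below it and a median of 1.40. Scaled to the percentile over the 119 miRNAs, the pair was 1 of 2 whose members were both called between neurons and microglia in opposite directions. The other was miR-99a* (2.38 higher in neurons, log2) with miR-99b*, at -2.63. Over all tested miRNAs this comparison called 52.2% higher and 31% lower in neurons, so opposite calls are common among miRNAs at large. The count of 2 pairs depends on the scaling. With the percentile over all miRNAs, miR-26a was not called between neurons and microglia (0.13, limma adjusted p = 0.271). The remaining pairs were not counted under other scalings. let-7b and let-7d, with a range of 3.47, were both higher in neurons, by 4.17 and 0.70.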
